A study of Mus musculus with 12 samples.

Results

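Shox2, Dcn, Ndnf, Mlf1, Diras2, Nell1 and Trmt9b are 7 genes whose signal was higher in caudal serotonin neurons of the mouse embryo than in rostral ones. They were chosen by that difference: each had been picked from these arrays as higher in caudal than in rostral serotonin neurons. The array holds 13 probe sets for them, of 45101 in all, and 9 of the 13 passed the filter on low signal, at least 1 for each gene. The cells were sorted from neural tubes of ePet-EYFP embryos at E12.5, whose transgene places a yellow fluorescent protein (YFP) under a Pet-1 enhancer active in serotonin neurons. The 4 populations were caudal YFP-positive serotonin neurons (C+), caudal YFP-negative cells (C-), rostral YFP-positive serotonin neurons (R+) and rostral YFP-negative cells (R-). The 2 domains were cut apart at the pontine flexure, with further incisions at the mesencephalic flexure and the spinal cord. Each population had 3 biological replicates of 200000 sorted cells, each hybridised to 1 Affymetrix Mouse 430 2.0 array. All groups carried the transgene, C- and R- were mixtures of every YFP-negative cell type of their domain, and the labels do not say whether replicates came from separate litters.

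Serotonin neurons of the hindbrain form a rostral group, which sends axons forward into the forebrain, and a caudal group, which projects largely to the spinal cord. Both arise next to the floor plate and share the enzymes and transporters of serotonin, while their position along the body axis is marked by Hox genes and other transcription factors. Shox2 is a homeodomain transcription factor known from limb, heart and palate development and from a class of spinal interneurons. Dcn (decorin), Ndnf and Nell1 encode secreted proteins: a small leucine-rich proteoglycan of the extracellular matrix, a fibronectin type III protein and a thrombospondin-like glycoprotein. Diras2 encodes a small GTPase of the Ras family expressed in brain, Mlf1 the myeloid leukemia factor 1 protein, and Trmt9b a protein of the tRNA methyltransferase 9 family.

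The labels were borne out by the markers listed for them. All 11 tested serotonergic genes, among them Tph2 and Slc6a4, were higher in C+ than in C- and in R+ than in R-. Between the domains 3 of them, Tph2, Slc18a2 and Ddc, were lower in C+ than in R+. In C- against R- 5 were lower, and 0 were called higher in either comparison. With the replicate number as a block 2 were higher in C+ than in R+ (Gata2 and Htr1a) and 1 in C- than in R- (Lmx1b). Tph2 averaged 2193 ± 296 in C+ and 6211 ± 605 in R+ (SD, n = 3 each). All 8 tested Hox genes were higher, and both engrailed genes lower, in C+ than in R+ and in C- than in R-. Within the caudal domain, however, 7 Hox genes were called lower in the serotonin neurons than in the YFP-negative cells. Their differences in log2(signal + 10) ran from -3.59 for Hoxc5 to -1.35 for Hoxb4, and only Hoxb3 was not called (-0.51). The 2 caudal populations were therefore not matched in Hox signal. Whether this bears on the members' differences between them was not tested. These and the calls below come from limma, fitted to log2(signal + 10) over all 12 arrays. The p-values were adjusted by the Benjamini-Hochberg method over 12845 genes, each represented by a single probe set, chosen as given under the processing. A gene was called at an adjusted p below 0.05, and each difference is one of log2(signal + 10), given ± SE. The 2 domains also differed in the beta-actin controls, read as a sign of RNA integrity. The 3' probe set over the 5' one gave 5.79 ± 1.20 in C+, 5.75 ± 1.69 in C-, 3.24 ± 0.52 in R+ and 3.52 ± 0.78 in R- (SD, n = 3 each). The same ratio of the Gapdh controls overlapped between the domains. It was 1.60, 3.36 and 4.63 in C+ and 1.54, 2.06 and 2.50 in C-. In R+ it was 1.18, 1.69 and 1.26, and in R- 1.15, 2.14 and 1.17. The Gapdh ratio was not used as a covariate. With the beta-actin ratio as a covariate, C+ minus R+ was 2.01 for Nell1, against 2.91 without it, and 3.08 for Ndnf, against 3.63. In the same fit C- minus R- was 0.13 for Ndnf, against 0.59, and -0.28 for Nell1, against 0.47, neither of which passed in either fit, and the call of Diras2 was lost (-0.77 ± 0.19, adjusted p = 0.0604). Dcn kept its call in C- against R- (1.67 ± 0.39, adjusted p = 0.0458), and C+ minus R+ of Shox2 was 5.21, against 5.25. In sorted bulk samples, more cells expressing a gene and more RNA per cell cannot be told apart.

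The choice of the genes fixed the direction of C+ against R+, so that comparison is given as a description without a test. The comparisons within a domain, caudal and rostral, each share 3 arrays with the choice, and enrichment over YFP-negative cells may have entered it, so their p-values are not independent of it. C- against R- shares no array with the contrast of C+ and R+; whether C- and R- entered the choice in another way is not recorded.

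Shox2 had a signal of 19007, 18830 and 16780 on the C+ arrays, 3831, 3284 and 2945 on the C- arrays, 342, 523 and 570 on the R+ arrays, and 2814, 2937 and 2829 on the R- arrays. The order of the groups was therefore C+, C-, R- and R+, and R+ was the only population below both YFP-negative ones. C+ averaged 18206 ± 1238 and R+ 478 ± 120 (SD, n = 3 each), a ratio of 38.1. Within the caudal domain Shox2 was higher in C+ than in C- (2.44 ± 0.17, adjusted p = 1.40e-07). Within the rostral domain it was lower in R+ than in R- (-2.59 ± 0.17, adjusted p = 9.00e-08), with mean signals of 478 and 2860. C- and R- lay close together, with means of 3353 and 2860 (0.22 ± 0.17, 95% interval -0.14 to 0.58, adjusted p = 0.59), although the lowest C- array was just above the highest R- array. A second Shox2 probe set was far dimmer and varied widely between replicates. It read 2856, 477 and 214 in C+, 350, 37 and 70 in C-, 4, 31 and 9 in R+, and 221, 117 and 160 in R-. The groups kept the pattern of C+ high and R+ low, but neither comparison within a domain passed in a fit of all 26061 kept probe sets (C+ against C- 2.62 ± 0.85, adjusted p = 0.0859; R+ against R- -2.95 ± 0.85, adjusted p = 0.0528).

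Ndnf, a secreted protein of neurons and endothelial cells, shared this pattern at a smaller size. Its signal was 1899, 1923 and 2333 in C+, 597, 812 and 810 in C-, 119, 173 and 182 in R+, and 354, 616 and 517 in R-. The C+ arrays were the highest and the R+ arrays the lowest, with no overlap with the other groups. Ndnf was higher in C+ than in C- (1.47 ± 0.22, adjusted p = 0.000345) and lower in R+ than in R- (-1.58 ± 0.22, adjusted p = 0.000192). C- and R- overlapped, at means of 740 ± 124 and 496 ± 132 (SD, n = 3 each), and their difference did not pass (0.59 ± 0.22, adjusted p = 0.217), but it did with the replicate number as a block (0.59 ± 0.15, adjusted p = 0.0214). A second Ndnf probe set lay between 1 and 42 on all arrays, below the filter.

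**Figure D1:**
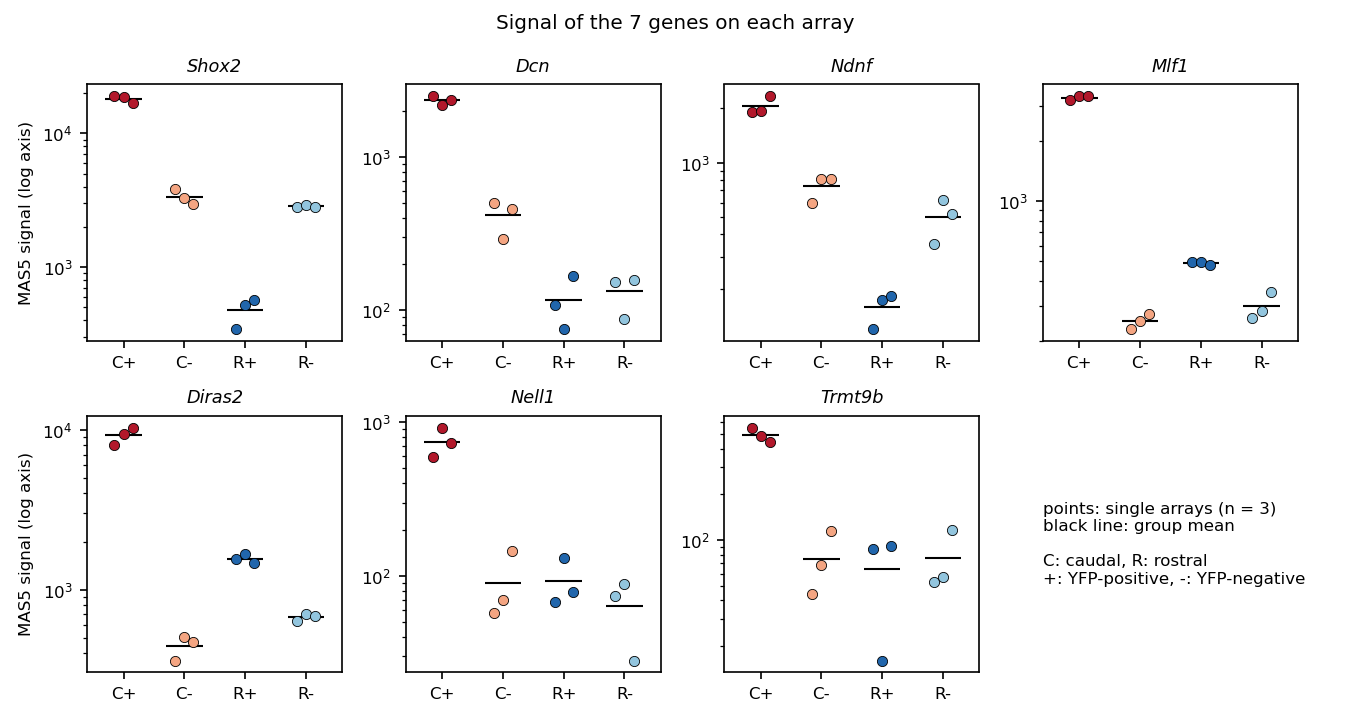
MAS5 signal on a log axis for the representative probe set of each gene. Points are single arrays and lines are means of 3 arrays in C+, C-, R+ and R-. All C+ arrays lie above all other arrays for each gene, a direction that the choice of genes fixes against R+; R+ is the lowest group for Shox2 and Ndnf and the second highest for Mlf1 and Diras2.

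Dcn, decorin, binds collagen fibrils and growth factors in connective tissue. Its signal was 2494, 2178 and 2364 in C+, 502, 292 and 457 in C-, 108, 75 and 166 in R+, and 152, 88 and 157 in R-. Both caudal populations were above both rostral ones, and the rostral groups overlapped. Dcn was higher in C+ than in C- (2.50 ± 0.29, adjusted p = 2.38e-05). In the comparison of YFP-negative cells it was also higher in C- than in R-, with means of 417 ± 111 and 132 ± 38.5 (SD, n = 3 each; 1.59 ± 0.29, adjusted p = 0.00592). R+ and R- were not distinguished (-0.20 ± 0.29, 95% interval -0.81 to 0.42, adjusted p = 0.777). A second Dcn probe set read 9 to 132 and passed the filter value of 107 on 1 array.

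Nell1, whose protein is known from bone formation, read 590, 921 and 727 in C+ and averaged below the median signal over the arrays, 107, in the other groups. It was 57, 70 and 144 in C-, 68, 131 and 79 in R+, and 74, 88 and 28 in R-. C+ averaged 746 ± 166 and was higher than C-, at 90.3 ± 46.9 (SD, n = 3 each; 2.99 ± 0.42, adjusted p = 0.000163). Nell1 exceeded the filter value on 5 arrays, and it passed the filter only because the C+ arrays were among them. The other 3 groups overlapped, and neither R+ against R- (0.55 ± 0.42, adjusted p = 0.514) nor C- against R- (0.47 ± 0.42, adjusted p = 0.665) passed. Their 95% intervals reached from -0.35 to 1.45 and from -0.43 to 1.36, so that only large differences were detectable with 3 arrays. A second Nell1 probe set was at 5 to 96, below the filter throughout.

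Trmt9b belongs to the same family as the yeast enzyme Trm9, which completes a modification of the wobble uridine of some tRNAs. Its signal was 549, 482 and 444 in C+, 44, 68 and 114 in C-, 87, 16 and 91 in R+, and 53, 57 and 117 in R-. Every C+ array lay above every other array. The remaining groups overlapped, with means of 75.3 in C-, 64.7 in R+ and 75.7 in R-, below the median signal of 107. It was higher in C+ than in C- (2.63 ± 0.51, adjusted p = 0.00252). Trmt9b exceeded the filter value of 107 on 5 arrays, and it passed the filter only because the C+ arrays were among them. R+ and R- differed by -0.36 ± 0.51 (adjusted p = 0.771) and C- and R- by -0.01 ± 0.51 (adjusted p = 0.995). A second probe set read 7 to 109.

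Mlf1 is measured by a single probe set. It read 3212, 3368 and 3371 in C+, 228, 252 and 273 in C-, 496, 498 and 478 in R+, and 261, 280 and 349 in R-. Both serotonergic populations were above both YFP-negative ones. Mlf1 was higher in C+ than in C- (3.68 ± 0.15, adjusted p = 6.64e-10) and, to a smaller extent, higher in R+ than in R- (0.72 ± 0.15, adjusted p = 0.0054). The means of R+ and R- were 491 ± 11.0 and 297 ± 46.3 (SD, n = 3 each). C- and R- overlapped (-0.23 ± 0.15, adjusted p = 0.531).

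Diras2 followed the same order, with 8058, 9449 and 10337 in C+, 358, 501 and 467 in C-, 1554, 1665 and 1474 in R+, and 633, 702 and 679 in R-. It was higher in C+ than in C- by a ratio of mean signals of 21.0 (4.37 ± 0.15, adjusted p = 1.08e-10). R+ was also above R-, by a ratio of 2.33 (1.21 ± 0.15, adjusted p = 6.22e-05). C- was below R- (-0.60 ± 0.15, adjusted p = 0.0461), a call lost in 15 of 23 alternatives (adjusted p 0.00409 to 0.789). A second Diras2 probe set did not show the pattern: it read 194, 226 and 72 in C+, 114, 161 and 42 in C-, 71, 140 and 120 in R+, and 37, 123 and 119 in R-. It passed the filter, the groups overlapped, and no comparison passed (C+ against C- 0.61 ± 0.56, adjusted p = 0.637). When both probe sets were averaged, C+ minus C- was 2.49 ± 0.28 (adjusted p = 3.11e-05) and R+ against R- was not called (0.77 ± 0.28, adjusted p = 0.104).

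Counted together, 7 of the 7 genes were higher in C+ than in C-, against 5.71% of all genes tested, and 0 were lower, against 7.39%. Nell1 and Trmt9b entered the test only through their C+ arrays, the group they were picked for. The median difference was 2.63 over the 7 genes and -0.04 over all genes. In R+ against R-, 2 were higher (Mlf1 and Diras2; 4.34% of all genes) and 2 lower (Shox2 and Ndnf; 7.86% of all genes), with a median of -0.20 against -0.01. In C- against R-, 1 was higher (Dcn; 1.78% of all genes) and 1 lower (Diras2; 1.05%), with a median of 0.22 against 0.04. For C+ against R+, on which the genes were chosen, 4.48% of all genes were called higher and 2.83% lower. The members' differences there were 5.25 for Shox2, 4.28 for Dcn, 3.63 for Ndnf, 2.98 for Trmt9b, 2.91 for Nell1, 2.73 for Mlf1 and 2.56 for Diras2. Diras2 was 1.498 there with its kept probe sets averaged, and Trmt9b was 2.34 without R+ replicate 2, its lowest array, and 2.32 with an offset of 50. The values ranked 5, 13, 16, 24, 25, 28 and 33 among 12845 genes. Over all kept probe sets, 8.2% were called in C+ against C-, 7.67% in R+ against R- and 1.49% in C- against R-, in either direction.

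**Figure D2:**
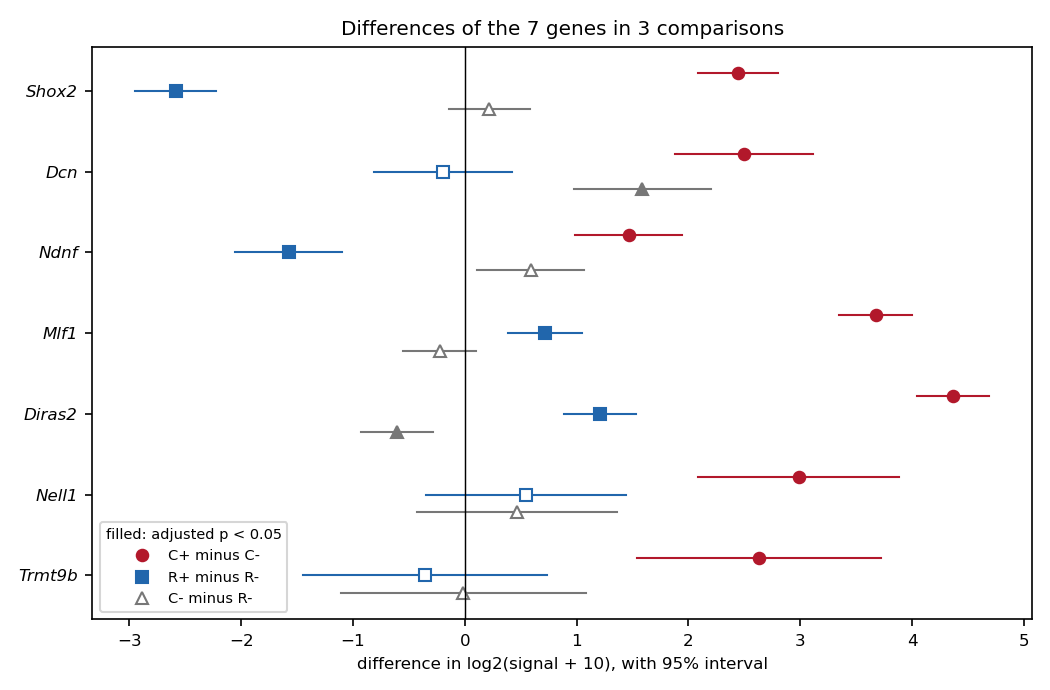
Differences in log2(signal + 10) with 95% intervals for C+ minus C-, R+ minus R- and C- minus R-; filled symbols have an adjusted p below 0.05. C+ minus C- is above 0 for each gene, while R+ minus R- runs from -2.59 for Shox2 to 1.21 for Diras2. The C+ and R+ arrays also entered the choice of the genes.

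Over the 12 arrays, which include the C+ and R+ arrays of the choice, Shox2 correlated most, among the 7 genes, with Ndnf (r = 0.98) and Mlf1 with Diras2 (r = 0.98), whereas Shox2 and Diras2 gave r = 0.51. These values describe 12 arrays in 4 groups and rest largely on the group means. Outside the members, the 5 genes most like Shox2 were Tac1 (r = 0.98), Lhfp (0.97), Tmem178 (0.96), Tmtc2 (0.96) and Igfbp4 (0.96). Tac1, the precursor of substance P and neurokinin A, averaged 4420 ± 912 in C+, 659 ± 81.0 in C-, 159 ± 25.4 in R+ and 533 ± 113 in R- (SD, n = 3 each), the same order as Shox2. The gene most like Ndnf was also Igfbp4, an insulin-like growth factor binding protein (r = 0.98). Magel2, a gene of the Prader-Willi region, was the most like both Mlf1 and Diras2 (r = 0.99 for each), with 7199 ± 488 in C+, 1319 ± 115 in C-, 2321 ± 249 in R+ and 1429 ± 65.2 in R-. Nell1 was most like the transmembrane collagen Col25a1 (r = 0.97), Dcn most like Pnn (0.96) and Trmt9b most like Snx14 (0.94).

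Shox2 and Mlf1 lie close together on mouse chromosome 3, with Rsrc1, a gene for an arginine- and serine-rich splicing-related protein, between them. In the RefSeq table of GRCm38.p6 Rsrc1 and Shox2 overlap by 408 bases, so the signals of the 2 genes are uncertain where their probes fall in that stretch. Nell1 overlaps 4933405O20Rik by 1339 bases, and the same limit holds for its signal. Rsrc1 read higher in C+, at 1575 ± 326, than in C-, at 734 ± 77.7 (1.07 ± 0.22, adjusted p = 0.00426). It was also higher in C+ than in R+, at 568 ± 138 (SD, n = 3 each; 1.46 ± 0.22, adjusted p = 0.00105). A second Rsrc1 probe set passed in C+ against R+ (1.84 ± 0.38, adjusted p = 0.0174) and not in C+ against C- (1.07 ± 0.38, adjusted p = 0.121). Ptx3, a pentraxin on the far side of Shox2, went the other way: 179 ± 34.3 in C+, 365 ± 85.0 in C-, 1017 ± 95.8 in R+ and 1403 ± 64.2 in R- (SD, n = 3 each). It was lower in C+ than in R+ (-2.46 ± 0.20, adjusted p = 1.57e-06) and lower in C- than in R- (-1.94 ± 0.20, adjusted p = 2.74e-05). Lxn, a carboxypeptidase inhibitor beyond Mlf1, was higher in both caudal populations (0.74 ± 0.12 for C+ against R+, adjusted p = 0.00121; 1.20 ± 0.12 for C- against R-, adjusted p = 1.86e-05), while Ccnl1 and Gfm1 were not called in any comparison.

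**Figure D3:**
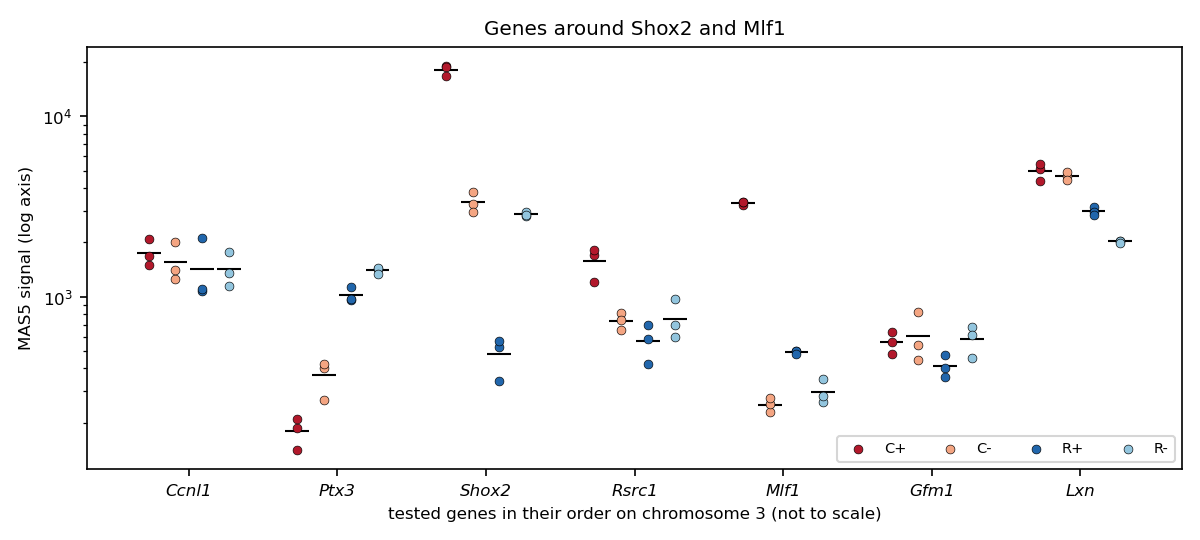
MAS5 signal on a log axis of the tested genes around Shox2 and Mlf1, in chromosomal order and not to scale. Points are single arrays in C+, C-, R+ and R- and lines are means of 3; Rsrc1, between the 2 members, is highest in C+, and Ptx3 is lowest there.

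Among the 3 nearest protein-coding genes on each side of every member, 22 were tested. Of these, 3 were higher (Rsrc1, Eea1 and Sema4d) and 6 lower in C+ than in C-, and 5 were higher (Rsrc1, Eea1, Lxn, Sema4d and Slc6a5) and 1 lower (Ptx3) in C+ than in R+. With the replicate number as a block these became 4 and 8 in C+ against C-, and 9 and 3 in C+ against R+. In R+ against R- 1 was higher and 5 lower (1 and 8 with the block), and in C- against R- 2 were higher and 1 lower (2 and 2 with the block). Of all genes tested, 5.71% were higher and 7.39% lower in C+ against C-, and 4.48% and 2.83% in C+ against R+. The shares were 4.34% and 7.86% in R+ against R-, and 1.78% and 1.05% in C- against R-. With the block 2929, 2795, 2684 and 1310 of 12845 genes were called in these 4 comparisons, in either direction. These shares and totals also stand beside the counts of the gene lists below. Slc6a5 and Slc17a6, the glycine and vesicular glutamate transporters that flank Nell1, were both lower in C+ than in C- (-3.32 ± 0.33, adjusted p = 4.93e-06, and -3.59 ± 0.28, adjusted p = 4.11e-07), opposite to Nell1 itself. Lum, Kera and Epyc, the proteoglycan genes beside Dcn, did not pass the filter on any probe set used.

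Promoter sequences were given by RefSeq (GRCm38.p6) for 4 of the 7 genes. The 250 bases before the annotated start of Shox2 and Mlf1 are shown because these neighbours were high in the same population, and those of Diras2 because it alone held one of the motifs searched. Motifs were TAATTA, a homeodomain site, AGATAA, bound by GATA factors, and TGATTNAT, a site of Hox and Pbx pairs, on both strands, with matches in capitals. The only match was 1 of TGATTNAT, 112 bases before the start of Diras2, and Nell1 held none. Of 32851 promoters, 4.84% held TAATTA, 9.99% AGATAA and 2.82% TGATTNAT in the same window. The windows lie at chr3:66981772-66982021 on the minus strand for Shox2, chr3:67373847-67374096 on the plus strand for Mlf1 and chr13:52530837-52531086 on the minus strand for Diras2, and their G and C content was 55.6%, 55.2% and 44.0%, against a median of 52.4% over all promoters.
Shox2: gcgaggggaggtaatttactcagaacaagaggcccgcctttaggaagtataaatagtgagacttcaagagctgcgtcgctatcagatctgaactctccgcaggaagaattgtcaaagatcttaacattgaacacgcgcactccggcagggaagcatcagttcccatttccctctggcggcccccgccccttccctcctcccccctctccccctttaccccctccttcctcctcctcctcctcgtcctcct
Mlf1: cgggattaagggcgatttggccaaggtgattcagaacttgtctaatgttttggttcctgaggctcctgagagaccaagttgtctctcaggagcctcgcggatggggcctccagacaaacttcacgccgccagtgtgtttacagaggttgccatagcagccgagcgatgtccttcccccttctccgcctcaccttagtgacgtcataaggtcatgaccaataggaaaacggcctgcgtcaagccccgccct
Diras2: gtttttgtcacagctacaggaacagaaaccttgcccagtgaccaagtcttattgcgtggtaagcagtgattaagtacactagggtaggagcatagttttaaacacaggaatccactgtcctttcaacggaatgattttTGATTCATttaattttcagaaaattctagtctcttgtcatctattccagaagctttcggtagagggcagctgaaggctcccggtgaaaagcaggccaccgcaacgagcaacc

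Genes of other cells that express a member were read beside it. For Dcn these were 20 genes of mesenchyme, meninges and fibroblasts, of which 11 were tested. In C+ against C- 5 were lower (Col1a2, Col3a1, Pdgfra, Postn and Fbln1) and 1 higher (Igfbp4), opposite to Dcn for 5 of these 6. Col3a1, a fibrillar collagen, averaged 156 ± 17.5 in C+, against 699 ± 314 in C- (SD, n = 3 each; -2.01 ± 0.34, adjusted p = 0.000866). Pdgfra, a receptor of fibroblasts and oligodendrocyte precursors, averaged 46.3 ± 34.5 in C+ and 312 ± 39.7 in C- (-2.67 ± 0.66, adjusted p = 0.0127). In C+ against R+ 1 was higher, Igfbp4 again (1.66 ± 0.17, adjusted p = 1.96e-05), and 0 lower, or 3 and 0 with the block, which added Col1a1 and Col3a1. In R+ against R- 4 were lower (5 with the block). In C- against R-, where Dcn was higher, Pdgfra was too (4.13 ± 0.66, adjusted p = 0.00211), and Col1a2 and Col3a1 joined it with the block. Pdgfra was below the filter value on all C+, R+ and R- arrays. It was tested only through its C- arrays, which enter both of its calls. No listed gene was at 0 on any array, and 10 of the 20 were below the filter value on all C+ arrays, including Col1a1, Lum, Pdgfra and Twist1. The summed signal of the list was 8973 to 9954 in C+, 8059 to 10573 in C-, 3090 to 4402 in R+ and 5063 to 7337 in R-, of which Igfbp4 gave 7436 ± 460 in C+ (SD, n = 3). Without Igfbp4, a gene left out after its values were seen, the sum was 2054 to 2154 in C+, 3591 to 5276 in C-, 1131 to 1844 in R+ and 2001 to 2919 in R-. The part of these cells in the signal of Dcn in C- was not tested.

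**Figure D4:**
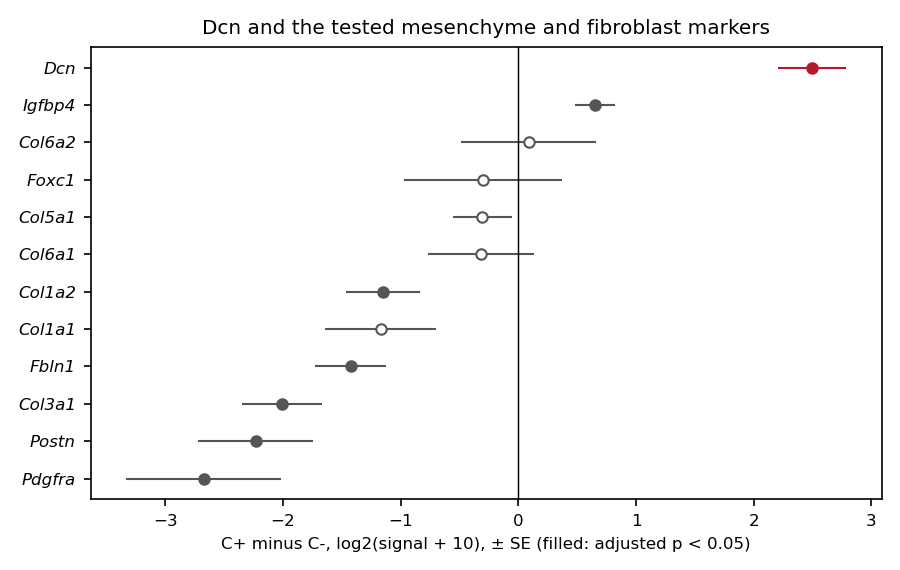
C+ minus C- difference in log2(signal + 10), ± SE, of Dcn (red) and the 11 tested mesenchyme, meninges and fibroblast markers (grey); filled symbols have an adjusted p below 0.05. Dcn is at 2.50, while Pdgfra, Postn, Col3a1, Fbln1 and Col1a2 lie below 0.

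Other small leucine-rich proteoglycans, the family of Dcn, were mostly dim: 4 of 14 on the array were tested. None was called in C+ against C-, C+ against R+ or C- against R-, and Bgn and Prelp were lower in R+ than in R-. Of 10 tested pericyte and endothelial genes 6 were lower in C+ than in C- and 3 lower in R+ than in R- (4 with the block), Esam was higher in C+ than in R+ (1 lower with the block) and Rgs5 higher in C- than in R- (2 with the block). Of 7 tested blood and macrophage genes 5 were lower in C+ than in C- (and 1 higher with the block), 4 lower and 1 higher in R+ than in R-, and 1 lower in C+ than in R+ (4 with the block), with 0 called in C- against R- (1 lower with the block). Of 10 tested genes of motile cilia, a cell type that expresses Mlf1 in other tissues, 1 (Dnah9) was higher in C+ than in C- and 0 were called elsewhere.

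Shox2 marks a set of V2 interneurons in the spinal cord. None of the other tested genes of those lineages was called in the direction of Shox2 within both domains. Of 11 tested V2 genes 2 were higher in C+ than in C-, namely Gata2 and Gata3, which serotonin neurons also express, and 6 were lower. Lhx3, a V2a and motor neuron factor, averaged 77.0 ± 74.3 in C+, against 591 ± 96.3 in C- (n = 3 each, SD; -3.30 ± 0.64, adjusted p = 0.00238). Sox14, another V2a gene, averaged 23.3 ± 3.79 in C+ and 197 ± 36.8 in R+ (-2.62 ± 0.34, adjusted p = 0.000217), opposite to Shox2. In C+ against R+ 0 were higher and 3 lower (2 and 4 with the block), in R+ against R- 2 and 3 (2 and 5 with the block), and in C- against R- 0 and 5 (2 and 6 with the block). The 2 higher in R+ than in R- were again Gata2 and Gata3, opposite to Shox2. The 3 lower in R+ than in R-, as Shox2 was, were Sox21 (-2.21 ± 0.28, adjusted p = 6.76e-05), Tal1 (-3.05 ± 0.19, adjusted p = 7.88e-08) and Tal2 (-3.09 ± 0.49, adjusted p = 0.000537). Sox21 and Tal1 were lower in C+ than in C- as well, and Tal1 was lower in C+ than in R+, opposite to Shox2. Of 12 genes studied with Shox2 in heart, limb and sensory ganglia 5 were tested. Isl1 and Ntrk2 were lower in C+ than in C- and in R+ than in R-, and Ntrk2, the BDNF receptor, was higher in C+, at 1343 ± 74.3, than in R+, at 634 ± 153 (SD, n = 3 each; 1.10 ± 0.18, adjusted p = 0.00205). None was called in C- against R-, and both were higher there with the block.

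Among 12 tested relatives and receptors of Ndnf and Nell1, Nell2 resembled Nell1. It averaged 3491 ± 260 in C+, 1588 ± 385 in C-, 1448 ± 232 in R+ and 1435 ± 209 in R- (SD, n = 3 each). It was higher in C+ than in C- (1.15 ± 0.18, adjusted p = 0.000405) and than in R+ (1.27 ± 0.18, adjusted p = 0.000486), and C- and R- were not distinguished (0.13 ± 0.18, adjusted p = 0.794). Robo3, an axon guidance receptor that binds Nell2, was lower in C+ than in C- (-3.69 ± 0.29, adjusted p = 4.57e-07). In all 1 was higher and 4 lower in C+ against C- (3 and 5 with the block), 0 and 5 in R+ against R-, 3 and 0 in C+ against R+ (Nell2, Cntnap4 and Fgfr3; 3 and 1 with the block) and 0 and 1 in C- against R- (1 and 1 with the block).

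Diras1, the closest relative of Diras2, was not called in any comparison; it averaged 301 ± 87.2 in C+, 356 ± 39.7 in C-, 334 ± 120 in R+ and 287 ± 86.8 in R- (SD, n = 3 each). Of 10 tested Ras-like genes, Rit2, a neuronal GTPase, was called higher in C+ than in C- and in R+ than in R-, as Diras2 was, and also in C+ than in R+. Rras2 was called higher in the same 2 comparisons within a domain, but lower in C+ than in R+. Rit2 averaged 1341 ± 57.2 in C+, 179 ± 16.1 in C-, 298 ± 46.5 in R+ and 172 ± 68.9 in R- (SD, n = 3 each), with 2.84 ± 0.24 for C+ against C- (adjusted p = 8.25e-07), 0.81 ± 0.24 for R+ against R- (adjusted p = 0.0354) and 2.14 ± 0.24 for C+ against R+ (adjusted p = 4.56e-05). The list gave 3 higher and 1 lower for C+ over C-, then 2 and 1 for R+ over R- (3 and 2 with the block), 1 and 2 in C+ against R+ (2 and 2 with the block) and 0 called in C- against R- (1 lower with the block). Of 13 tested genes of wobble uridine modification, the pathway of the Trm9 family, 0 were called in C+ against C-, C+ against R+ or C- against R-, and 1 (Kti12) was lower in R+ than in R-; with the block Trmt112 was lower in those 3 comparisons, and Elp4 and Urm1 in C+ against R+. Trmt112, the partner of Trm9-type enzymes, averaged 6557 ± 798 in C+, against 8320 ± 748 in C- (n = 3 each, SD; -0.35 ± 0.15, adjusted p = 0.168). Of 8 relatives and partners of Mlf1, 0 were called in C+ against C- (2 lower with the block) or C- against R-, Cenpu was lower in R+ than in R- (2 with the block) and Hax1 lower in C+ than in R+ (1 higher and 2 lower with the block). Mlf2, the paralog of Mlf1, varied widely in C+, at 1998 ± 1308, against 2601 ± 1005 in C- (SD, n = 3 each; -0.49 ± 0.39, adjusted p = 0.497).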

How the data were processed

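The deposited intensity values, whole numbers on a linear scale, came from 12 arrays (3 for each of 4 groups). The submitters' processing notes name MAS5 without settings. Per the labels' protocols, cells were dissociated with trypsin, sorted into Trizol, and RNA was labelled after 1 round of amplification. The mean of each array without its lowest and highest 2% was 496 to 499.7 by direct calculation, and array medians were 93 to 121. Detection calls were not used. Highest agreement between any 2 arrays was 1.76% identical values. Precision is limited by the number of arrays.

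Of 45101 probe sets 64 controls were left out; 34945 had 1 symbol in the platform annotation, 932 several and 9160 none. A probe set was kept (26061) if 3 or more arrays exceeded 107, the median over the table. Probe sets with names ending in _x_at were set aside where a gene had another kept probe set. The remaining one with the highest mean log2 signal stood for its gene, which left 12845 genes. limma 3.58.1 (R 4.3.3) was fitted to log2(signal + 10) with 1 mean per group, a trend in eBayes and two-sided tests of 4 contrasts. The fit was also run on simulated data, where only C+ against C- was read. Its noise was independent on each array, so it could not show the effect of the correlation between same-numbered arrays given below. The offset shrinks differences of dim genes. As separate litters are not stated, p-values reflect only the spread between these samples, which may be technical. Same-numbered arrays of different groups had correlated deviations from the group means (0.118 to 0.52, 18 of 18 over 0.1; other pairs -0.398 to 0.273), so the replicate number was used as a block in an alternative. The members and the 13 lists (163 genes, 120 tested) were chosen with earlier results of these data known. Named genes were the members, list genes, the 3 nearest protein-coding genes on each side, the 5 genes best correlated with Shox2 and the best for each other member.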

Additional observations from a re-analysis of the deposited data

Results flagged for a closer look

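Shox2 and Ndnf stood out because every array moved one way in the caudal domain and the opposite way in the rostral domain. Shox2 was higher on each C+ array than on any C- array and lower on each R+ array than on any R- array, and the difference between the domains (C+ minus C-, less R+ minus R-) was 5.03 on the log2(signal + 10) scale. The same difference was 3.04 for Ndnf, within the range of the other 5 genes and Shox2 (2.44 to 5.03), so that the opposite directions within the domains, not its size, set Ndnf apart. The difference itself was not tested, because the genes were chosen on C+ and R+ arrays, which enter it.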

How the results depend on the processing

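Over 23 alternatives, of which leaving out all replicate 1 arrays was chosen after seeing the data, 466 of the members' tested differences kept their side of the threshold, 16 were no longer past it, 1 newly passed and 0 past the threshold turned round. All 7 genes were called higher in C+ than in C- under each alternative, and 3 to 4 were called in R+ against R-. Each alternative reused C+ and R+ arrays that chose the genes, so these counts are not independent of the choice. Nell1 and Trmt9b passed the filter only through their C+ arrays. In C- against R- the count of 2 was 1 with an offset of 50, without the trend, with the mean of a gene's probe sets, with the beta-actin ratio as covariate and without replicate 1, and 1 to 2 when single arrays were left out; Diras2 was the call lost in each of these, and its adjusted p ranged from 0.00409 to 0.789. Dcn was called there under each (adjusted p 9.65e-05 to 0.0458). The replicate block gave 7, 4 and 3 member calls, 16 against 12 over the members' probe sets, 190 against 142 over the listed genes and 37 against 24 over the neighbouring genes; the members' other calls did not change with it. The block raised the genes called in C+ against C- to 2929, against 1683, in R+ against R- to 2684, against 1567, in C+ against R+ to 2795, against 940, and in C- against R- to 1310, against 363. The median C+ minus R+ difference of the 7 genes, 2.98, was 2.64 with an offset of 50, which compresses dim genes by construction, and 2.98 to 3.32 when single arrays were left out. The cause of the other changes was not tested. The groups of 3 arrays bound what dim genes such as Nell1 and Trmt9b can show outside C+.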
